A study of Mus musculus with 32 samples.

Results

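Bone marrow-derived macrophages labelled T2KO, from a Trem2-null mouse line, were compared with wild-type macrophages after a night in low M-CSF, with no LPS. The members are the 8 libraries whose labels give low M-CSF and no LPS, 4 labelled T2KO and 4 labelled WT, out of 32 libraries in the series. The other 24 libraries hold the same genotypes in normal M-CSF, with LPS, or with both. The strain label is C57BL/6 for both genotypes, and the T2KO macrophages come from the Trem2-null mouse line of Turnbull and colleagues. Cells stood overnight in complete RPMI with L-cell conditioned medium (LCCM, a source of M-CSF) at 0.5% or 10%. No label joins these percentages to the words low and normal, so that 0.5% is the low medium and 10% the normal one is inferred here. LPS, where it was given, was at 10 ng/ml for 4 hours. The labels do not give the age or sex of the mice, and nothing in them tells if replicates were taken from different animals or dishes. P-values therefore measure the spread between these libraries, which may be technical.

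TREM2 is a surface receptor of macrophages and microglia that binds lipids, lipoproteins and cell debris. It has no signalling domain of its own and works through the adaptor DAP12, which recruits the kinase SYK. M-CSF, the product of Csf1, acts on the receptor encoded by Csf1r and keeps macrophages alive, growing and dividing. The series title places TREM2 in the control of energy and biosynthetic metabolism, and low M-CSF is a condition in which survival and growth signals are scarce.

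Each library reads the 3' ends of polyadenylated transcripts, and levels are given as CPM, counts scaled to library size with TMM factors. Total counts were 5333519, 11758309, 8776749 and 15585423 in T2KO libraries 1 to 4, against 6481139, 6802071, 5570700 and 4929113 in WT libraries 1 to 4. Some libraries of a group were more alike than others. Within T2KO, library 1 was close to library 3 and library 2 to library 4, with a chi-square per degree of freedom of 6.38 to 6.77 over genes, against 53.2 to 77.9 for the other pairs. Within WT the same pairs gave 5.07 to 18.8, against 15.5 to 37.7 for the other pairs. A ratio of 1 is counting noise alone, and amplified reads of repeats of 1 culture can also exceed it, so these ratios do not show that the 4 libraries are separate cultures. They were fitted as the 4 replicates that the labels number. A fit with libraries 1 and 3 summed and libraries 2 and 4 summed, which leaves 2 samples a group, is called the summed fit. It is given where it ends a call of a gene described with its values or moves a list count.

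In low M-CSF, 1879 of 11244 genes tested differed between T2KO and WT macrophages (edgeR quasi-likelihood test, adjusted p under 0.05), which is 16.7% of them. Of these, 870 were higher in T2KO cells (7.74%) and 1009 were lower (8.97%). The falls were larger than the rises. At 4-fold or more, 40 genes were higher and 234 were lower. The median log2 difference over all genes tested was 0.07. The summed fit called 621 genes, 156 higher and 465 lower. In normal M-CSF the same comparison of genotypes called 209 genes, or 1.86%, with 84 higher (0.747%) and 125 lower (1.11%).

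Trem2 itself (chromosome 17, 48346401 to 48352276 in build mm10) had 118, 99.0, 132 and 110 CPM in T2KO libraries 1 to 4, against 438, 371, 516 and 517 CPM in WT libraries 1 to 4. Every T2KO library lay below every WT library, but reads of the gene remained. T2KO cells held 25% of the WT level, 115 ± 13.9 against 460 ± 70.1 CPM (SD, n = 4 each), a log2 difference of -2.0 ± 0.19 (SE). An exact two-sided permutation test gave p = 0.0286, the smallest that the 70 arrangements of 4 against 4 libraries allow. In normal M-CSF the level was 36.3 ± 4.96 CPM in T2KO and 305 ± 46.7 CPM in WT cells, and the log2 difference was less negative in low than in normal medium by 1.07 (interaction, adjusted p = 0.0115). These libraries read 3' ends, so the reads show that sequence at the end of the gene was transcribed, and they do not show what protein it could make.

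Of the 7 tested members of the Trem family list, 2 were higher and 1, Trem2, was lower. These are 28.6% and 14.3%, beside 7.74% and 8.97% of all genes. Treml1, which encodes a receptor of platelet granules and lies beside Trem2, had 12.5, 10.4, 13 and 12.2 CPM in T2KO libraries, against 1.53, 0.640, 1.31 and 3.19 CPM in WT libraries. The T2KO libraries stood clear of the WT libraries, and the log2 difference was 2.87 ± 0.50 (adjusted p = 5.66e-05). B430306N03Rik, a neighbouring gene of the same cluster, was also higher, at 29.2 ± 3.03 CPM in T2KO and 12.4 ± 1.30 CPM in WT cells (log2 difference 1.23 ± 0.20, adjusted p = 2.18e-05). Trem1, Trem3, Treml2 and Treml4 did not pass, with log2 differences of 0.02, -0.33, 0.34 and 0.61.

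Most genes that act with the receptor did not pass, which was also so for most of all genes tested. Of 28 tested genes of TREM2 and DAP12 signalling, 2 were higher and 1 was lower, together 10.7%, beside 16.7% of all genes. Their median log2 difference was -0.07, against 0.07 over all genes, and the summed fit called 0 higher and 1 lower. Tyrobp, which encodes DAP12, stood at 1214 ± 103 CPM in T2KO and 1315 ± 274 CPM in WT cells (adjusted p = 0.67). Syk stood at 119 ± 7.93 CPM in T2KO and 102 ± 8.49 CPM in WT cells (adjusted p = 0.296). Lat2, an adaptor that is phosphorylated below such receptors, fell to 54.1 ± 8.93 CPM in T2KO, against 105 ± 10.1 CPM in WT cells (log2 difference -0.96 ± 0.18, adjusted p = 0.000116). The 2 higher members, Vav2 and Inpp5k, passed at adjusted p = 0.0491 and 0.0258. Vav2 did not pass without any 1 of the 8 libraries (0.0564 to 0.142), nor Inpp5k without T2KO library 1 or 3 or WT library 2 or 4 (0.0722 to 0.156), and neither passed in the summed fit (0.107 and 0.232).

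Csf1r, the M-CSF receptor, had 1838, 1264, 1674 and 1200 CPM in T2KO libraries and 1001, 693, 1024 and 1060 CPM in WT libraries. All 4 T2KO libraries were above the WT libraries, with T2KO libraries 1 and 3 well above 2 and 4. The log2 difference was 0.66 ± 0.19 (adjusted p = 0.015), which did not pass without T2KO library 1 (0.0718), without WT library 2 (0.0854) or in the summed fit (0.229). Csf2ra, the GM-CSF receptor chain, fell to 98.4 ± 20.9 CPM in T2KO, against 215 ± 33.1 CPM in WT cells (log2 difference -1.12 ± 0.22, adjusted p = 0.000253). Csf3r, the G-CSF receptor, stood at 95.3 ± 7.95 CPM in T2KO and 57.6 ± 14.2 CPM in WT cells (log2 difference 0.73 ± 0.21, adjusted p = 0.012, 0.055 without WT library 3 and 0.17 in the summed fit). Of 7 tested receptors and ligands in this list, 3 were higher (42.9%, beside 7.74% of all genes) and 1 was lower (14.3%, beside 8.97%). The higher count was 1 without T2KO library 1, WT library 2 or WT library 3. The summed fit called 0 higher and 1 lower. The third higher gene, Csf1, had overlapping libraries, at 8.75 ± 1.58 CPM in T2KO and 6.02 ± 1.93 CPM in WT cells. Its adjusted p was 0.0354, and 0.0694 to 0.13 without T2KO library 1, 3 or 4 or WT library 1, 2 or 3, and 0.273 in the summed fit.

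**Figure D1:**
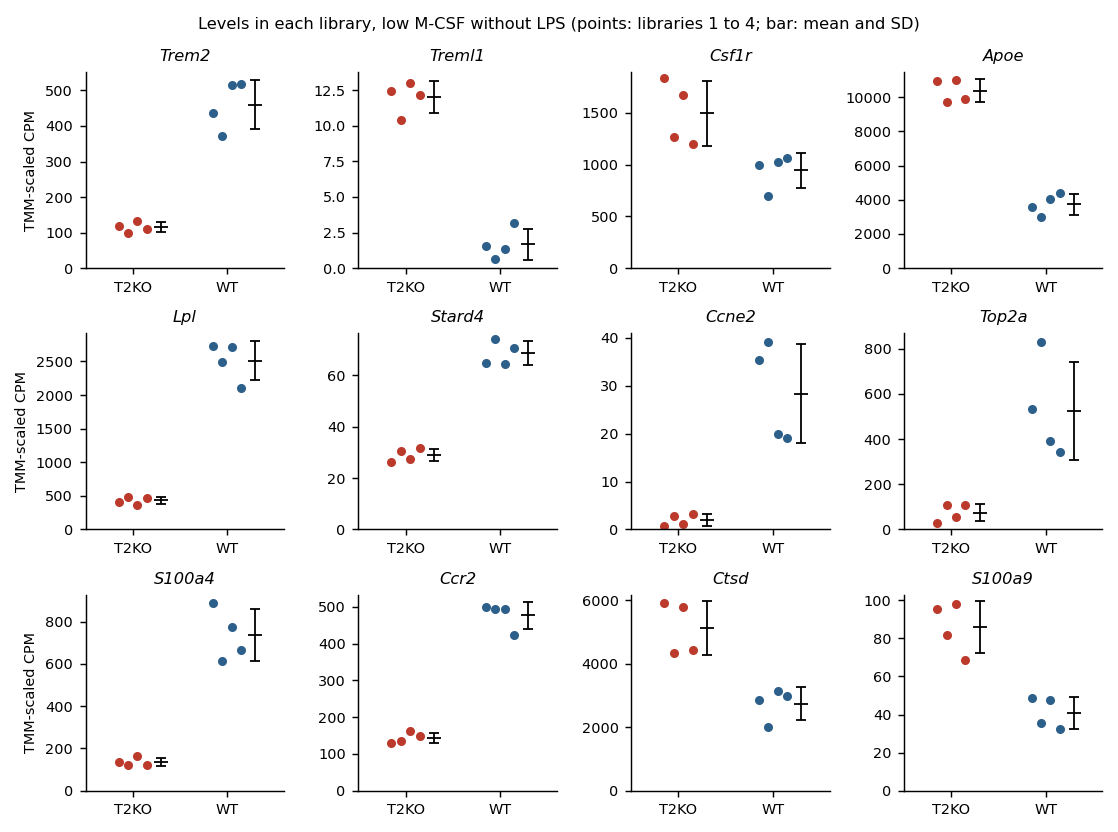
Level of 12 genes in each library without LPS in low M-CSF (y axis, TMM-scaled CPM from 0; points are libraries 1 to 4 from left to right in each genotype; the bar is the mean with its SD, n = 4). T2KO libraries lie above WT libraries for Treml1, Csf1r, Apoe, Ctsd and S100a9 and below them for Trem2, Lpl, Stard4, Ccne2, Top2a, S100a4 and Ccr2, with no overlap in any panel.

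Cell cycle genes were lower in T2KO cells. Of 45 tested genes of mitosis and cytokinesis, 42 were lower in T2KO cells and 0 were higher, with a median log2 difference of -2.16 (range -3.00 to 0.40), where 8.97% of all genes tested were lower. The summed fit called 40 of them lower, and 41 or 42 were lower with each library left out. In these bulk samples, fewer dividing cells and less of these transcripts in each cell cannot be told apart.

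Top2a, the topoisomerase that untangles chromosomes before division, had 30.1, 106, 54.6 and 107 CPM in T2KO libraries, against 534, 829, 392 and 345 CPM in WT libraries. Its log2 difference was -2.81 ± 0.35 (adjusted p = 9.89e-08), and the highest T2KO library lay well under the lowest WT library. Ncapg, a condensin subunit that compacts chromosomes, fell to 7.17 ± 3.93 CPM in T2KO, against 59.4 ± 23.6 CPM in WT cells. Nusap1, a spindle microtubule protein, fell to 21.7 ± 14.4 CPM in T2KO, against 165 ± 70.8 CPM in WT cells. Ttk, the spindle checkpoint kinase, fell to 2.63 ± 0.947 CPM in T2KO, against 19.4 ± 6.14 CPM in WT cells, and Kif23, a motor of cytokinesis, to 31.2 ± 8.73 CPM in T2KO, against 197 ± 109 CPM in WT cells. Within T2KO, libraries 2 and 4 held more of these transcripts than libraries 1 and 3. The summed level of the mitosis and cytokinesis list was 716, 1862, 1089 and 1816 CPM in T2KO libraries 1 to 4, against 4929, 7100, 3969 and 3729 CPM in WT libraries 1 to 4.

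Genes of DNA replication followed, with 28 of 46 tested members lower (60.9%, beside 8.97% of all genes) and 0 higher. Their median log2 difference was -1.03, and the summed fit called 22 lower. Ccne2, the cyclin E2 that drives entry into S phase, had 0.760, 2.91, 1.19 and 3.20 CPM in T2KO libraries, against 35.3, 39.1, 19.9 and 19.1 CPM in WT libraries. The lowest WT library was several times above the highest T2KO library, and the log2 difference was -3.69 ± 0.35 (adjusted p = 3.6e-10). Uhrf1, which guides maintenance methylation of new DNA, fell to 1.49 ± 0.327 CPM in T2KO, against 16.6 ± 5.50 CPM in WT cells. Mcm10 and Mcm5, parts of the replication helicase and its loading, had log2 differences of -3.06 ± 0.46 and -2.36 ± 0.25. Chaf1a, a chromatin assembly factor, had a log2 difference of -2.26 ± 0.27.

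Upstream of S phase, 8 of 21 tested G1 cyclins and CDK inhibitors were lower and 1 was higher. These are 38.1% and 4.76%, beside 8.97% and 7.74% of all genes. The summed fit called 4 lower and 1 higher, and 5 were lower without WT library 1. Ccnd1, the M-CSF-responsive cyclin D1, fell to 87.9 ± 12.9 CPM in T2KO, against 273 ± 52.0 CPM in WT cells (log2 difference -1.63 ± 0.19, adjusted p = 2.88e-08). Ccne1, the other E cyclin, had a log2 difference of -2.49 ± 0.36. The higher gene was Btg2, an antiproliferative gene induced by p53, at 235 ± 43.7 CPM in T2KO and 115 ± 34.2 CPM in WT cells (log2 difference 1.03 ± 0.20, adjusted p = 0.000231).

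In normal M-CSF, 0 of the 45 mitosis genes and 0 of the 46 replication genes passed in either direction, with median log2 differences of -0.11 and -0.13. Of all genes tested 1.86% passed there, so these counts of 0 are near the share of all genes. The difference between the media was itself past the threshold, and negative, for 39 mitosis genes and 20 replication genes, where 3.21% of all genes tested had a negative interaction. Summed over the mitosis and cytokinesis list, normal medium gave 9407, 6690, 8640 and 6091 CPM in T2KO libraries 1 to 4 and 7521, 9798, 8733 and 9399 CPM in WT libraries 1 to 4. Those 2 groups overlapped, and both lay above the T2KO libraries of low medium.

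**Figure D2:**
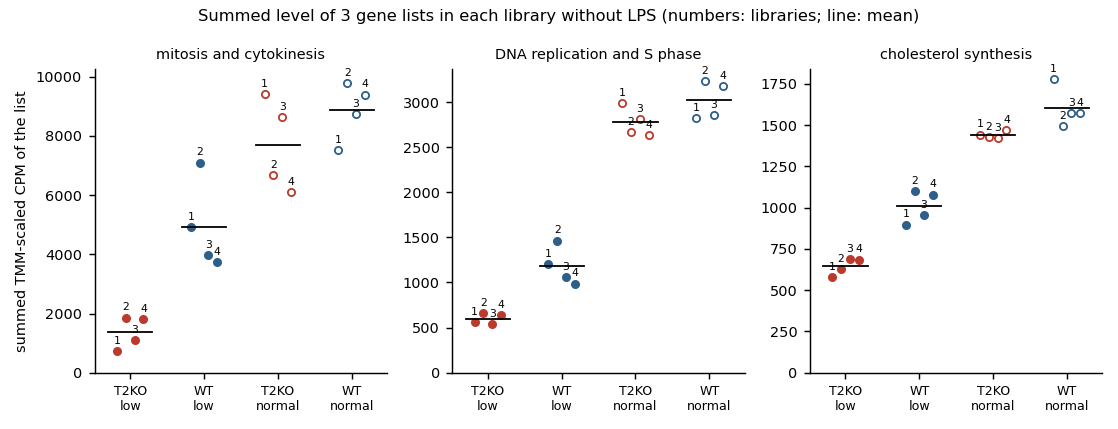
Summed level of 3 gene lists (y axis, summed TMM-scaled CPM from 0) in each library without LPS, with filled points for low M-CSF and open points for normal M-CSF, the library number at each point and a line at the mean of 4. In low M-CSF all T2KO points lie below the WT points in each panel. In normal M-CSF the genotypes overlap for mitosis and for DNA replication.

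The promoters of these genes are shown because the list moves together. In cycling cells, many genes of late cell cycle carry a cell cycle homology region (CHR, TTTGAA) and CCAAT boxes just before the start site. The 250 bases before the start of Top2a (chr11:99024190-99024439, minus strand), of Ncapg (chr5:45669675-45669924, plus strand) and, for the cholesterol list below, of Hsd17b7 (chr1:169969206-169969455, minus strand) are given 5′ to 3′ from RefSeq, build GRCm38.p6. Capitals mark TTTGAA or its complement TTCAAA, and CCAAT or its complement ATTGG.
Top2a: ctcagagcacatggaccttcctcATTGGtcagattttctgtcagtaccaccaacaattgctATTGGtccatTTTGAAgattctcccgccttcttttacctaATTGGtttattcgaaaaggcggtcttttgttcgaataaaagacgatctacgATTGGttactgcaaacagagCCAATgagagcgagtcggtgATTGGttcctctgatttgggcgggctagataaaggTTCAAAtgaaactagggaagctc
Ncapg: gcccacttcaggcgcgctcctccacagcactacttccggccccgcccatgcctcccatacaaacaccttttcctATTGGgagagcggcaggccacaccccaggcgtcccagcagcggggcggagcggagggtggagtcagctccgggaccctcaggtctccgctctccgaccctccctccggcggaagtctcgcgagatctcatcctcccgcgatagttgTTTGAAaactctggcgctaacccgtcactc
Hsd17b7: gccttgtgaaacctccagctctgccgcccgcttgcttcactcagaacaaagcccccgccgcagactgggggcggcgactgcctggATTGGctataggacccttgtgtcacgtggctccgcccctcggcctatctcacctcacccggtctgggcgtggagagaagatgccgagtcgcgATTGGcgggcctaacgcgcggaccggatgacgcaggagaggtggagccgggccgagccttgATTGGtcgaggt
Top2a held TTTGAA 179 bases before the start, TTCAAA 23 bases before it, and 6 CCAAT boxes on the 2 strands. Ncapg held 1 TTTGAA, 30 bases before the start, and 1 CCAAT box. Windows of this length could be matched for 9096 of the 11244 genes tested. On either strand, TTTGAA stood in 14 of 37 mitosis genes (37.8%) and 6 of 38 replication genes (15.8%), against 12.8% of all matched genes. CCAAT stood in 29 of 37 mitosis genes (78.4%) and 25 of 38 replication genes (65.8%), against 40.9% of all matched genes. The E2F forms TTTCCCGC and TTTGGCGC stood in 3 and 4 of 38 replication genes (7.89% and 10.5%), against 2.12% and 1.0% of all. A match of letters is a description and does not show binding.

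Among enzymes that supply DNA building blocks the calls were mostly lower. Of 31 tested genes of the pentose phosphate path and nucleotide synthesis, 8 were lower and 1 was higher. These are 25.8% and 3.23%, beside 8.97% and 7.74% of all genes. The summed fit called 6 lower and 0 higher, and 0 were higher without T2KO library 1 or 3 or any 1 WT library. Rrm2, the regulated subunit of ribonucleotide reductase, fell to 2.12 ± 0.875 CPM in T2KO, against 14.3 ± 2.24 CPM in WT cells (log2 difference -2.66 ± 0.32, adjusted p = 6.86e-08). Tk1, thymidine kinase, had a log2 difference of -1.99 ± 0.29. Mthfd2, a mitochondrial folate enzyme from the list of serine and one-carbon genes, fell to 11.7 ± 2.65 CPM in T2KO, against 35.8 ± 9.30 CPM in WT cells (log2 difference -1.62 ± 0.20, adjusted p = 1.25e-07). In that list 3 of 17 were lower (17.6%, beside 8.97% of all genes) and 2 were higher (11.8%, beside 7.74%). The summed fit called 1 lower and 0 higher, and 1 was higher without T2KO library 2 or any 1 WT library.

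Cholesterol synthesis genes that passed were all lower in T2KO cells. They were 10 of 24 tested (41.7%, beside 8.97% of all genes), the median log2 difference was -0.65 and all 24 fitted differences were negative. The summed fit called 4 of them, and a fit to the 8 compared libraries alone called 13. Stard4, a sterol carrier, had 26.3, 30.4, 27.5 and 31.5 CPM in T2KO libraries, against 64.8, 73.9, 64.4 and 70.7 CPM in WT libraries. The libraries of each genotype were close together, and each T2KO library was below each WT library (log2 difference -1.24 ± 0.16, adjusted p = 3.98e-07). Hsd17b7, an enzyme of the late pathway, fell to 8.92 ± 2.08 CPM in T2KO, against 22.6 ± 4.61 CPM in WT cells. Idi1 and Sqle, enzymes of isoprenoid and squalene steps, had log2 differences of -0.92 and -0.86, and Idi1 did not pass in the summed fit (adjusted p = 0.085). The list summed to 646 ± 52.1 CPM in T2KO and 1007 ± 97.5 CPM in WT cells. In normal medium the sums were 1440 ± 20.5 CPM in T2KO and 1605 ± 121 CPM in WT cells. There, 0 of the 24 genes passed, beside 1.86% of all genes. The interaction passed for 3 of them, beside 4.62% of all genes. CCAAT stood in 16 of 17 matched promoters of the list (94.1%, against 40.9% of all), 3 of them in the Hsd17b7 window shown above, at 165, 73 and 12 bases before the start.

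Of 17 tested genes of fatty acid synthesis, 3 were lower (17.6%, beside 8.97% of all genes) and 0 were higher. The summed fit called 2 lower. Fads2, the desaturase that starts long polyunsaturated fatty acids, fell to 5.77 ± 1.72 CPM in T2KO, against 23.5 ± 6.79 CPM in WT cells (log2 difference -2.0 ± 0.27, adjusted p = 6.5e-07). Scd2, a stearoyl-CoA desaturase, fell to 10.5 ± 1.57 CPM in T2KO, against 24.8 ± 5.95 CPM in WT cells. The third, Elovl6, passed at adjusted p = 0.0301 and did not pass without T2KO library 1 (0.113), T2KO library 3 (0.0673) or WT library 1, 2 or 4 (0.0501 to 0.127), nor in the summed fit (0.195).

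Genes of lipid transport moved in both directions. Apoe, the main lipoprotein ligand of cholesterol export, had 10944, 9740, 11017 and 9868 CPM in T2KO libraries, against 3550, 2986, 4060 and 4394 CPM in WT libraries. No T2KO library came near the highest WT library (log2 difference 1.47 ± 0.14, adjusted p = 5.68e-10). In normal medium Apoe stood at 507 CPM in T2KO and 447 CPM in WT cells, and the interaction was 1.29 (adjusted p = 3.59e-05). Lpl, lipoprotein lipase, went the other way, with 408, 479, 370 and 469 CPM in T2KO libraries, against 2728, 2487, 2715 and 2112 CPM in WT libraries (log2 difference -2.54 ± 0.17, adjusted p = 6.75e-14). It was also lower in normal medium, at 1775 CPM in T2KO and 3653 CPM in WT cells, and its interaction was -1.50 (adjusted p = 2.78e-05).

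Of 18 tested genes of cholesterol export and LXR targets, 6 were higher and 3 were lower (3 and 2 in the summed fit). These are 33.3% and 16.7%, beside 7.74% and 8.97% of all genes. Abcg1, a cholesterol exporter to HDL, stood at 114 ± 9.69 CPM in T2KO and 56.0 ± 10.4 CPM in WT cells (log2 difference 1.02 ± 0.21, adjusted p = 0.000538). Abca1, the exporter to lipid-poor apolipoprotein, did not pass, with 495, 359, 474 and 370 CPM in T2KO libraries and 276, 377, 274 and 403 CPM in WT libraries (adjusted p = 0.259). Nr1h3, which encodes LXR alpha, was among the lower genes, at 3.17 ± 1.0 CPM in T2KO and 6.71 ± 1.30 CPM in WT cells. Apoc1, an apolipoprotein next to Apoe, and Abca9 had log2 differences of 1.66 ± 0.45 and 1.10 ± 0.19, and Apoc1 did not pass in the summed fit (adjusted p = 0.0548).

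Of 23 tested genes of lipid uptake, binding and droplets, 4 were higher and 3 were lower, together 30.4%, beside 16.7% of all genes. These counts were 1 and 1 in the summed fit. The higher count was 2 without T2KO library 1, without T2KO library 3 or without WT library 1. Angptl4, an inhibitor of Lpl, stood at 15.1 ± 4.16 CPM in T2KO and 4.20 ± 1.87 CPM in WT cells (log2 difference 1.84 ± 0.46, adjusted p = 0.00468). Pparg, the lipid-sensing receptor that drives uptake genes, fell to 7.18 ± 2.05 CPM in T2KO, against 23.7 ± 7.75 CPM in WT cells (log2 difference -1.70 ± 0.32, adjusted p = 0.000121). Lrp1, an endocytic receptor for Apoe-bearing particles, had a log2 difference of -0.54 ± 0.14 and did not pass in the summed fit (adjusted p = 0.25).

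The genes that mark lipid- and damage-associated macrophages, some of which depend on Trem2 in microglia of mouse models, did not move as a block. Of 30 tested, 5 were higher (16.7%, beside 7.74% of all genes) and 7 were lower (23.3%, beside 8.97%). The summed fit called 2 higher and 4 lower. The higher count was 2 or 3 without T2KO library 1 or 3 or without WT library 1, 2 or 3. Next to Lpl, the lower genes included Spp1, osteopontin, at 538 ± 83.8 CPM in T2KO and 1386 ± 371 CPM in WT cells (log2 difference -1.37 ± 0.18). They also included Itgax, the CD11c integrin chain, at 0.528 ± 0.325 CPM in T2KO and 3.49 ± 1.71 CPM in WT cells, and Mmp12, macrophage elastase, with a log2 difference of -1.0 ± 0.20. The higher genes included Apoe and Ctsd, cathepsin D.

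**Figure D3:**
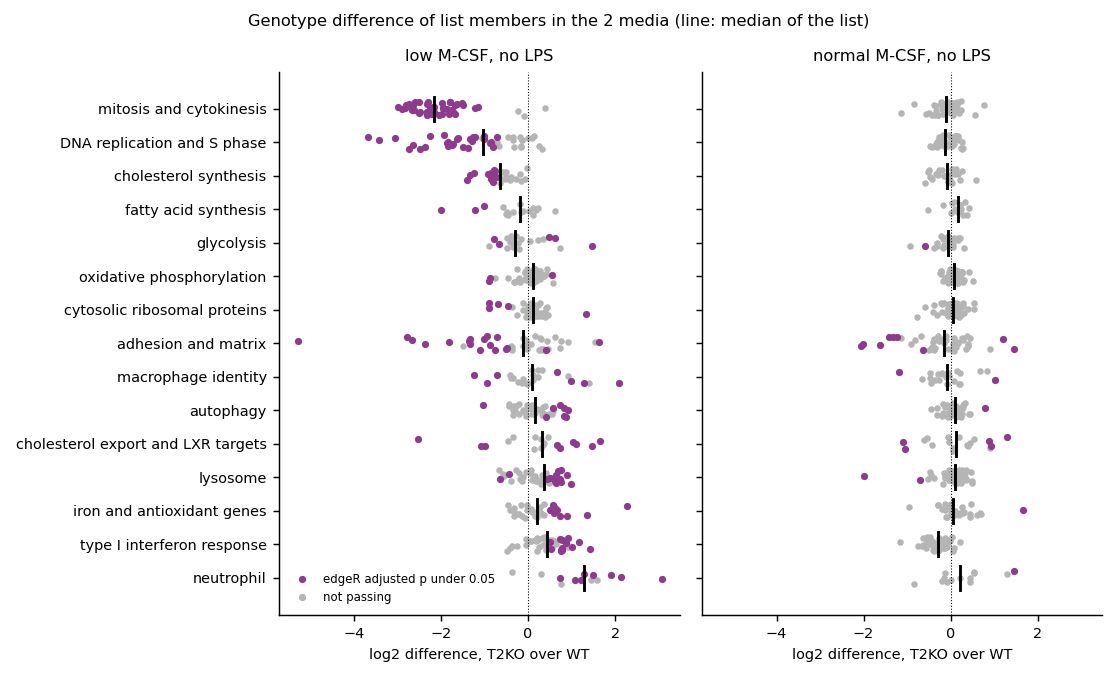
Log2 difference of T2KO over WT (x axis) for each tested member of 15 gene lists (listed down the page), in low M-CSF on the left and normal M-CSF on the right. Purple points passed edgeR at adjusted p under 0.05, grey points did not, and black lines are list medians, which stand at -2.16 for mitosis and -1.03 for DNA replication in low M-CSF and at -0.11 and -0.13 in normal M-CSF.

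Of 48 tested lysosomal genes 15 were higher in T2KO cells (31.2%, beside 7.74% of all genes) and 2 were lower (4.17%, beside 8.97%), with a median log2 difference of 0.36, but the call depended on the libraries. The higher count was 9 without T2KO library 3, 6 without WT library 2 and 2 in the summed fit, where 0 were lower. Ctsd had 5934, 4356, 5810 and 4441 CPM in T2KO libraries, against 2850, 2001, 3148 and 2991 CPM in WT libraries (log2 difference 0.90 ± 0.16, adjusted p = 5.43e-05; 0.0405 in the summed fit). T2KO libraries 1 and 3 held more than 2 and 4, and each was above the WT libraries. Scarb2, a lysosomal membrane protein, stood at 204 ± 42.6 CPM in T2KO and 103 ± 21.4 CPM in WT cells. Psap, the precursor of the saposins that help degrade sphingolipids, stood at 3102 ± 788 CPM in T2KO and 1832 ± 227 CPM in WT cells, and Lgmn, legumain, at 1053 ± 196 CPM in T2KO and 625 ± 68.7 CPM in WT cells. The lower count was 1 without any 1 T2KO library. Ctsl, cathepsin L, was 1 of the 2 lower genes, at 449 ± 89.2 CPM in T2KO and 701 ± 91.0 CPM in WT cells. The CLEAR motif TCACGTGA, by which TFEB factors bind lysosomal genes, stood in 5 of 36 matched promoters of the list (13.9%), against 1.92% of all. In the summed fit Psap (adjusted p = 0.153), Lgmn (0.101) and Ctsl (0.249) did not pass.

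Of 39 autophagy genes, 7 were higher and 1 was lower, together 20.5%, beside 16.7% of all genes. The higher count was 3 or 4 without T2KO library 1, 3 or 4 or WT library 1 or 3, 1 without WT library 2 and 0 in the summed fit, where 0 were lower. Without WT library 1 or 3 the lower count was 2. In the fit to all libraries the lower gene was Wipi1, a phosphoinositide-binding protein of early autophagosomes, at 19.8 ± 4.04 CPM in T2KO and 40.7 ± 8.52 CPM in WT cells. Of 42 genes of the mTOR, AKT and AMPK pathways, 6 were higher and 1 was lower, together 16.7%, the share of all genes (1 and 0 in the summed fit; 3 higher without T2KO library 1, T2KO library 3 or WT library 2; 0 lower without T2KO library 4). Flcn, folliculin, and Rragc, a Rag GTPase that Flcn acts on, had log2 differences of 1.08 ± 0.21 and 0.87 ± 0.16. Neither Wipi1 (adjusted p = 0.0611) nor Rragc (0.0677) passed in the summed fit.

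Of 31 tested genes of iron handling and antioxidant defence, 9 were higher (29.0%, beside 7.74% of all genes) and 0 were lower (2 higher in the summed fit). Gpx3, a secreted glutathione peroxidase, had 59.7, 32.1, 57.1 and 37.4 CPM in T2KO libraries, against 10.2, 6.15, 11.5 and 10.9 CPM in WT libraries. The lowest T2KO library was above the highest WT library (log2 difference 2.26 ± 0.27, adjusted p = 4.98e-08). Slc40a1, the iron exporter ferroportin, stood at 238 ± 39.7 CPM in T2KO and 93.8 ± 16.3 CPM in WT cells, and it was also higher in normal medium, at 95.3 CPM in T2KO and 30.2 CPM in WT cells. Hmox1, heme oxygenase, had a log2 difference of 0.90 ± 0.22 and did not pass in the summed fit (adjusted p = 0.0732).

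The shares called were 22.7% of glycolysis, 12.5% of TCA cycle, 5.08% of oxidative phosphorylation, 9.38% of ribosome biogenesis and 10.2% of cytosolic ribosomal protein genes, beside 16.7% of all genes. Of 22 glycolysis genes 3 were higher and 2 were lower, of 24 TCA cycle genes 2 were higher and 1 was lower, and of 59 genes of oxidative phosphorylation 1 was higher and 2 were lower. The summed fit called 1 glycolysis gene higher and 0 lower, and 0 genes of the other 2 lists. Most of these counts also moved when 1 library was left out. The glycolysis count was 1 higher without T2KO library 1, WT library 1 or WT library 3, 4 lower without T2KO library 1 and 1 lower without T2KO library 4. The TCA cycle count was 0 or 1 higher without T2KO library 1 or 3 or WT library 1, 2 or 3, and 0 lower without T2KO library 2 or 3 or WT library 1 or 2. The oxidative phosphorylation count was 0 higher without any 1 WT library. Pfkfb3, which makes the activator of phosphofructokinase, stood at 22.5 ± 2.76 CPM in T2KO and 8.21 ± 3.20 CPM in WT cells (log2 difference 1.46 ± 0.20, adjusted p = 6.5e-07), and Hk1, hexokinase 1, fell to 36.8 ± 4.90 CPM in T2KO, against 62.9 ± 6.93 CPM in WT cells, but did not pass in the summed fit (adjusted p = 0.12). Of 32 ribosome biogenesis genes 0 were higher and 3 were lower, and of 49 cytosolic ribosomal protein genes 1 was higher and 4 were lower. In the summed fit these were 0 biogenesis genes, and 0 ribosomal protein genes higher and 1 lower. Without T2KO library 3 or without WT library 2, 0 biogenesis genes were lower, without WT library 4 a biogenesis gene was higher, and without T2KO library 3 the ribosomal protein count was 2 higher. The higher one, Rps23, had 963, 3554, 952 and 3187 CPM in T2KO libraries, against 921, 843, 857 and 827 CPM in WT libraries. T2KO libraries 2 and 4 alone stood out, the gene has near-identical copies elsewhere in the genome, and it did not pass in the summed fit (adjusted p = 0.08), so its difference is uncertain.

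Among stress and survival genes, 3 of 24 tested ATF4 targets were higher and 1 was lower, together 16.7%, the share of all genes (2 and 1 in the summed fit). Atf5, a transcription factor of this response, stood at 18.2 ± 2.80 CPM in T2KO and 5.28 ± 1.04 CPM in WT cells (log2 difference 1.77 ± 0.20, adjusted p = 3.38e-08). Atf4 itself had 176, 330, 141 and 282 CPM in T2KO libraries and 111, 137, 110 and 132 CPM in WT libraries. The groups did not overlap, T2KO libraries 2 and 4 were the highest, and the summed fit did not call it (adjusted p = 0.099). Chac1, which degrades glutathione, had 0 counts in all 4 WT libraries, and its level in T2KO cells was at least 4.74-fold higher than a floor of 3 counts over the WT group.

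Of 28 tested genes of the BCL2 family and death receptors, 6 were higher and 1 was lower. These are 21.4% and 3.57%, beside 7.74% and 8.97% of all genes. The summed fit called 2 higher and 0 lower, and 3 were higher without T2KO library 3. Bbc3, the death-promoting protein PUMA, stood at 96.3 ± 12.8 CPM in T2KO and 47.2 ± 7.0 CPM in WT cells (log2 difference 1.03 ± 0.18, adjusted p = 6.32e-05). Fas, a death receptor, had a log2 difference of 1.01 ± 0.24. Bcl2, the survival gene of the family, stood at 5.61 ± 1.40 CPM in T2KO and 11.3 ± 5.95 CPM in WT cells, with overlapping libraries (adjusted p = 0.0123, 0.112 without WT library 3 and 0.081 in the summed fit).

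Of 42 tested genes of the type I interferon response, 13 were higher in T2KO cells (31.0%, beside 7.74% of all genes) and 0 were lower, with a median log2 difference of 0.44, but this rested on few libraries. The count was 4 without T2KO library 1, 8 without WT library 1, 5 without WT library 2, 2 in the summed fit and 2 in a fit to the 8 compared libraries. Ifit3, an antiviral protein, had 78.1, 35.9, 28.6 and 27.0 CPM in T2KO libraries, against 10.5, 14.2, 28.0 and 22 CPM in WT libraries, and T2KO library 1 stood above the rest. Rsad2, viperin, had 312, 196, 130 and 160 CPM in T2KO libraries, against 80.4, 135, 88.5 and 119 CPM in WT libraries. Rsad2 did not pass in the summed fit (adjusted p = 0.0985). Both genes overlapped between genotypes. For 2 of the 42 members the libraries of the genotypes did not overlap, beside 21.7% of all genes tested. The interferon-stimulated response element (ISRE), searched on both strands, stood in 15 of 30 matched promoters of this list (50%), against 3.46% of all.

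Calls among inflammatory genes went both ways, at low levels. Of 33 tested genes of the LPS response, 5 were higher and 3 were lower (4 and 2 in the summed fit). The higher share was 15.2%, beside 7.74% of all genes, and the lower share 9.09%, beside 8.97%. Il1b, the interleukin 1 beta gene, had 34.8, 60.2, 17.6 and 42.0 CPM in T2KO libraries, against 14.0, 15.9, 14.5 and 9.90 CPM in WT libraries (log2 difference 1.51 ± 0.28, adjusted p = 0.000122). T2KO library 3 lay close to the WT libraries and the others well above. Ier3, an immediate-early survival gene, stood at 85.4 ± 20.6 CPM in T2KO and 24.6 ± 6.48 CPM in WT cells, and Cd86, a costimulatory ligand, at 18.9 ± 3.70 CPM in T2KO and 7.19 ± 0.970 CPM in WT cells. Of 14 immediate-early and stress genes 0 were higher and 3 were lower (21.4%, beside 8.97% of all genes), with 1 lower in the summed fit. Among the lower genes, Fos fell to 35.4 ± 4.34 CPM in T2KO, against 144 ± 52.1 CPM in WT cells (log2 difference -2.03 ± 0.26, adjusted p = 1.65e-07).

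Of 23 tested chemokines 5 were higher and 3 were lower (2 and 2 in the summed fit; 3 higher without T2KO library 1 or WT library 1; 1 lower without WT library 2). In the fit to all libraries the calls were together 34.8%, beside 16.7% of all genes. Ccl24, an eosinophil attractant, and Ccl2, the ligand of Ccr2, had log2 differences of 2.56 ± 0.59 and 1.14 ± 0.21. Ccl9, an attractant of myeloid cells, fell to 189 ± 51.3 CPM in T2KO, against 430 ± 31.3 CPM in WT cells (log2 difference -1.19 ± 0.17, adjusted p = 1.23e-06).

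Of 22 tested chemoattractant receptors 3 were higher (13.6%, beside 7.74% of all genes) and 4 were lower (18.2%, beside 8.97%). The summed fit called 1 higher and 3 lower. Ccr2, the monocyte receptor for Ccl2, had 129, 137, 161 and 148 CPM in T2KO libraries, against 498, 493, 495 and 423 CPM in WT libraries (log2 difference -1.73 ± 0.17, adjusted p = 1.71e-09). The libraries of each genotype were tightly grouped and far apart. Cx3cr1, the fractalkine receptor, fell to 480 ± 43.6 CPM in T2KO, against 1135 ± 115 CPM in WT cells. Gpr183, an oxysterol receptor that guides cell positioning, had a log2 difference of -1.44 ± 0.20. P2ry12, an ADP receptor known from microglia, was higher, at 57.0 ± 9.01 CPM in T2KO and 23.2 ± 4.20 CPM in WT cells.

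Of 21 tested genes for taking up apoptotic cells 6 were higher and 2 were lower. These are 28.6% and 9.52%, beside 7.74% and 8.97% of all genes. The summed fit called 2 higher and 0 lower, and 1 was lower without WT library 4. Gas6, the bridging ligand of the TAM receptors, had 409, 272, 365 and 254 CPM in T2KO libraries, against 144, 77.9, 154 and 106 CPM in WT libraries (log2 difference 1.43 ± 0.18, adjusted p = 2.18e-07). The groups did not overlap. Its receptor Axl stood at 22.7 ± 3.28 CPM in T2KO and 37.2 ± 9.58 CPM in WT cells, with overlapping libraries (log2 difference -0.72 ± 0.21, adjusted p = 0.0126, 0.0569 without WT library 4 and 0.139 in the summed fit). Stab1, a scavenger receptor for phosphatidylserine, stood at 501 ± 29.9 CPM in T2KO and 268 ± 28.4 CPM in WT cells. C1qa and C1qc, chains of the complement starter C1q, had log2 differences of 0.96 ± 0.21 and 0.71 ± 0.18, and did not pass in the summed fit (adjusted p = 0.0728 and 0.171). Of 15 complement genes 4 were higher and 3 were lower, together 46.7%, beside 16.7% of all genes. These counts were 0 and 1 in the summed fit. The higher count was 2 without T2KO library 1, T2KO library 3 or WT library 2.

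Of 20 tested Fc and C-type lectin receptors 5 were higher and 3 were lower, together 40%, beside 16.7% of all genes. These counts were 4 and 1 in the summed fit. Clec4n, the dectin-2 receptor for fungal mannan, stood at 88.1 ± 16.1 CPM in T2KO and 26.5 ± 6.02 CPM in WT cells (log2 difference 1.73 ± 0.20, adjusted p = 3.76e-08). Fcgr2b, the inhibitory Fc receptor, and Fcgrt, the recycling receptor for IgG, had log2 differences of 1.11 ± 0.19 and 1.12 ± 0.21. Of 8 tested MHC class II genes 0 passed in edgeR. Under the alternatives up to 3 were lower, 3 in DESeq2, 2 with its size factors or without WT library 2 and 1 in a fit to the 8 compared libraries. Of 13 MHC class I genes 1 was lower (7.69%, beside 8.97% of all genes, and 0 in the summed fit).

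Of 44 tested adhesion and matrix genes 16 were lower (36.4%, beside 8.97% of all genes) and 2 were higher (4.55%, beside 7.74%; 9 and 1 in the summed fit; 1 higher without T2KO library 1 or 4 or WT library 1, 2 or 3). Col4a1, a basement membrane collagen chain, had 0.760, 0, 0.183 and 0.0543 CPM in T2KO libraries, against 5.49, 10.9, 5.11 and 8.23 CPM in WT libraries. T2KO libraries were at or near the limit of detection, and the fitted log2 difference was -5.30 ± 0.64 (adjusted p = 6.85e-08). Itgb7, an integrin beta chain, fell to 3.39 ± 0.842 CPM in T2KO, against 17.7 ± 3.28 CPM in WT cells, and Plau, urokinase, to 9.28 ± 2.40 CPM in T2KO, against 33.1 ± 4.83 CPM in WT cells. Itgam, the CD11b chain, fell to 402 ± 45.1 CPM in T2KO, against 770 ± 108 CPM in WT cells, but did not pass in the summed fit (adjusted p = 0.0775). Against this, F13a1, the clotting factor XIII chain of resident macrophages, had 1116, 1111, 1149 and 1185 CPM in T2KO libraries, against 331, 359, 351 and 434 CPM in WT libraries (log2 difference 1.63 ± 0.16, adjusted p = 9.55e-10). In normal medium 7 of the 44 were lower and 2 were higher, beside 1.11% and 0.747% of all genes.

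Markers of macrophage identity did not shift as a whole. They summed to 12413 ± 847 CPM in T2KO and 12258 ± 540 CPM in WT cells. Of 23 tested 4 were higher and 3 were lower, together 30.4%, beside 16.7% of all genes. These counts were 2 and 1 in the summed fit, and 5 were lower without T2KO library 1. Marco, a scavenger receptor, and Siglec1, sialoadhesin, had log2 differences of 2.08 ± 0.27 and 0.98 ± 0.21, and Siglec1 did not pass in the summed fit (adjusted p = 0.0703). Of 31 tested macrophage transcription factors, 5 were higher (16.1%, beside 7.74% of all genes) and 6 were lower (19.4%, beside 8.97%). The summed fit called 0 higher and 4 lower. Klf4, a factor of monocyte differentiation, fell to 19.8 ± 2.95 CPM in T2KO, against 73.1 ± 16.2 CPM in WT cells (log2 difference -1.88 ± 0.20, adjusted p = 4.53e-09). Cebpa, a myeloid lineage factor, stood at 94.5 ± 23.4 CPM in T2KO and 41.7 ± 7.2 CPM in WT cells (log2 difference 1.18 ± 0.30, adjusted p = 0.00438, and 0.0628 in the summed fit). Of 17 tested genes of alternative activation 6 were higher and 2 were lower (4 and 2 in the summed fit). These are 35.3% and 11.8%, beside 7.74% and 8.97% of all genes. Among them were Chil3 at 1.01 ± 0.23 and Arg1, arginase 1, at -1.96 ± 0.38 on the log2 scale.

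Markers of other cell types also differed. Of 13 tested neutrophil genes, 8 were higher (61.5%, beside 7.74% of all genes) and 0 were lower (5 higher in the summed fit), with a median log2 difference of 1.29. Their summed level ranged over 298 to 369 CPM in T2KO libraries and 189 to 210 CPM in WT libraries. This sum includes Csf3r, also counted with the M-CSF receptors above, and Lcn2, also counted with the LPS response. S100a9, a calprotectin chain, had 95.6, 81.6, 98.1 and 68.8 CPM in T2KO libraries, against 48.5, 35.3, 47.6 and 32.2 CPM in WT libraries (log2 difference 1.07 ± 0.19, adjusted p = 6.43e-05). Its partner S100a8, the granule protein Ngp and Lcn2, lipocalin 2, had log2 differences of 1.29, 1.2 and 2.14. Retnlg stood at 2.69 ± 0.449 CPM in T2KO and 0.288 ± 0.576 CPM in WT cells (adjusted p = 0.00777, and 0.0554 in the summed fit). In normal medium the list summed to 97.1 ± 5.52 CPM in T2KO and 95.1 ± 9.87 CPM in WT cells.

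Of 9 tested monocyte genes 3 were higher (33.3%, beside 7.74% of all genes) and 3 were lower (33.3%, beside 8.97%). The summed fit called 3 higher and 2 lower. Log2 differences of the list ran from -2.43 to 2.58, and the higher members include F13a1 and Chil3, described above. The list summed to 1395 to 1511 CPM in T2KO libraries and 1483 to 1738 CPM in WT libraries. The lowest of the list, S100a4, a calcium-binding protein of monocytes, had 135, 122, 164 and 124 CPM in T2KO libraries, against 889, 615, 773 and 667 CPM in WT libraries (log2 difference -2.43 ± 0.17, adjusted p = 2.77e-13). Of 8 tested osteoclast genes 2 were lower (25%, beside 8.97% of all genes) and 0 were higher. The lower count was 1 without T2KO library 2 or 4 or WT library 1 or 3, or in the summed fit. In this list Dcstamp, needed for cell fusion, stood at 0.159 ± 0.203 CPM in T2KO and 3.01 ± 1.16 CPM in WT cells. Dendritic, stromal, lymphocyte and erythroid lists had 2 to 4 tested members each, with 2 calls among them, and no mast cell marker could be tested. Whether other cells took part in the results above was not tested.

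Some of the largest falls were in genes known from lung epithelium. Sftpc, a surfactant protein of the alveolus, had 0 counts in all 4 T2KO libraries, against 4.47, 4.23, 3.5 and 18 CPM in WT libraries, which is at least 125-fold lower than WT at a floor of 3 counts over the T2KO group. Without WT library 4, the highest, the bound was 67.4-fold. Scgb1a1, secreted by club cells of the airway, had 0.760, 0.509, 0 and 0.109 CPM in T2KO libraries, against 20.7, 83.0, 27.3 and 106 CPM in WT libraries. A list of 10 lung epithelial genes, written after these values were seen, had 5 tested members, all lower in T2KO cells (2 in a fit to the 8 compared libraries). The list summed to 0.0917 to 1.22 CPM in T2KO and 27.7 to 134 CPM in WT libraries of low medium, and to 0 to 0.607 CPM in T2KO and 32.5 to 63.3 CPM in WT libraries of normal medium. The source of this RNA was not tested.

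By size among genes with no overlap between genotypes, at least 5 CPM in the higher group and an adjusted p under 0.05, the 15 largest rises ran from 2.05 to 4.48 on the log2 scale and the 15 largest falls from -8.79 to -3.69. Besides Treml1, Gpx3, Lcn2 and Marco, the rises were Camk2b, H2-T10, Rab4a, Adam33, Ggt5, Mir16-1, Epb41l3, Wdfy1, Gdf15, Il18bp and Enpp4. Camk2b, a calmodulin-dependent kinase subunit, stood at 5.79 ± 1.27 CPM in T2KO and 0.224 ± 0.368 CPM in WT cells. Gdf15, a stress-induced cytokine, stood at 45.0 ± 8.72 CPM in T2KO and 10.5 ± 3.79 CPM in WT cells (log2 difference 2.11 ± 0.26). H2-T10 belongs to a family of near-identical MHC genes, and Mir16-1 lies within a longer host transcript whose reads it can share, so both are uncertain. Rab4a and Mir16-1 were highest in T2KO libraries 2 and 4, and Mir16-1 did not pass in the summed fit (adjusted p = 0.0513).

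Besides Sftpc, Scgb1a1, Col4a1 and Ccne2, the falls were Map1a, Erdr1, Cspg4, Pira2, Serpinb6b, G530011O06Rik, Sik1, Nptx1, Col4a5, Pcdh7 and Ptchd1. Pcdh7, a protocadherin, had 15.3, 17.5, 12.8 and 18.1 CPM in T2KO libraries, against 209, 269, 190 and 243 CPM in WT libraries (log2 difference -3.83 ± 0.28, adjusted p = 6.13e-13). The T2KO libraries were at a small fraction of any WT library. Nptx1, a neuronal pentraxin, stood at 1.35 ± 0.548 CPM in T2KO and 28.9 ± 3.78 CPM in WT cells, and Cspg4, the NG2 proteoglycan, at 0.652 ± 0.493 CPM in T2KO and 24 ± 5.02 CPM in WT cells. Erdr1 stood at 2.51 ± 0.894 CPM in T2KO and 149 ± 32 CPM in WT cells. Erdr1 and G530011O06Rik are neighbours at the end of chromosome X, and Pira2 and Serpinb6b have close paralogs, so the counts of these 4 are uncertain. Some of these differences were of similar size in normal medium, among them H2-T10 (3.11 on the log2 scale), Wdfy1 (2.43), Erdr1 (-6.82), Pira2 (-4.87) and Sik1 (-5.14).

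**Figure D4:**
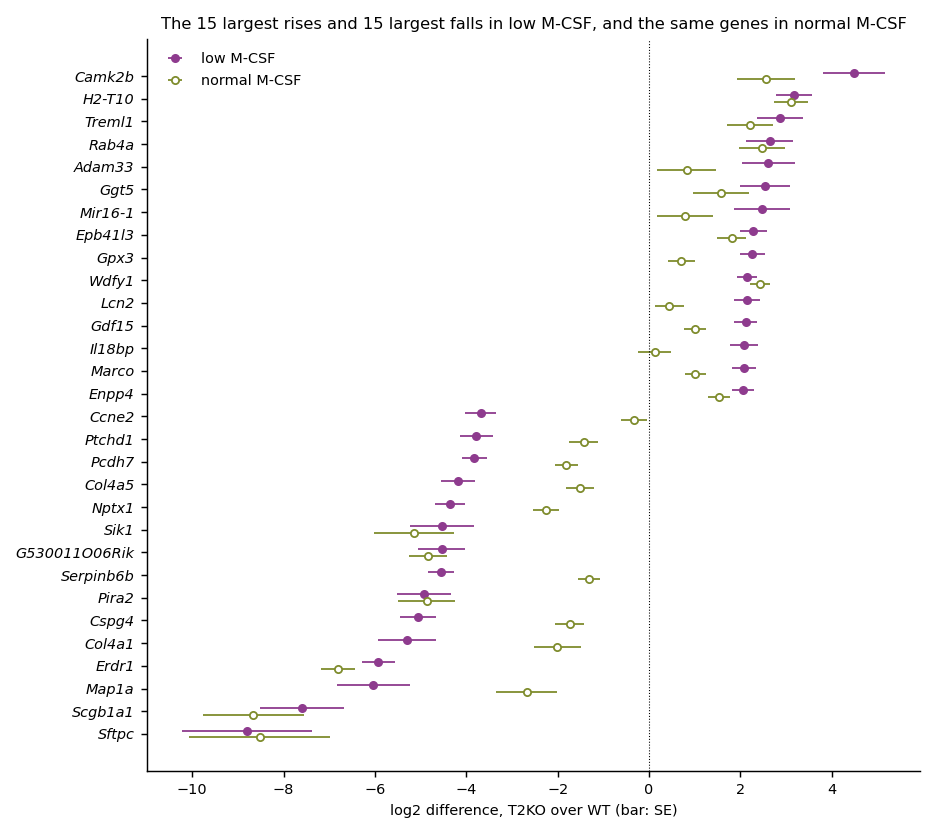
Log2 difference of T2KO over WT with its SE (x axis) for the 15 largest rises and the 15 largest falls in low M-CSF (filled), with the same genes in normal M-CSF (open). Ccne2 stands at -3.69 in low and -0.33 in normal M-CSF, whereas Erdr1, H2-T10 and Wdfy1 differ by a similar amount in both media.

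The difference between genotypes depended on the medium for 519 genes (4.62% of those tested), 158 with a more positive (1.41%) and 361 with a more negative difference (3.21%) in low medium. The share with a more positive difference was 30.4%, 20.2% in a fit to the compared libraries, and 5.2% in the summed fit, which called 97 genes, 5 more positive and 92 more negative. Of the 1879 genes called in low medium, 453 passed this interaction (24.1%), and 333 of those were lower in T2KO cells with a negative interaction. Both media called 145 genes, which are 7.72% of the low-medium calls and 69.4% of the 209 normal-medium calls, and 140 of them had the same direction.

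The most negative interactions were in Recql4, Pclaf, Chek1, Esco2, Ccne2, Cenph, Cspg4 and Col4a1, of which the first 6 act in DNA replication or its start, DNA repair or chromosome segregation. Recql4 was near the floor in T2KO cells, so the size of its interaction is uncertain. It had 0, 0.218, 0 and 0.163 CPM in T2KO libraries, against 2.04, 7.94, 0.584 and 2.35 CPM in WT libraries. Pclaf, a PCNA-binding factor of replication, had 8.36, 19.0, 15.3 and 21.1 CPM in T2KO libraries, against 146, 270, 105 and 115 CPM in WT libraries. In normal medium it stood at 495 CPM in T2KO and 418 CPM in WT cells (interaction -3.54, adjusted p = 5.71e-08). The most positive were in Nod1, Qtrt2, Angptl4, Plxna4, Mir142, Hcfc2, Dock6 and Il18bp. Nod1, a sensor of bacterial peptidoglycan, stood at 5.73 ± 1.56 CPM in T2KO and 2.57 ± 0.475 CPM in WT cells in low medium, and at 0.567 CPM in T2KO and 2.02 CPM in WT cells in normal medium (interaction 2.86, adjusted p = 2.12e-05). Mir142 and Hcfc2 did not pass in low medium itself (adjusted p = 0.138 and 0.101; 0.0448 for Hcfc2 without T2KO library 3). Qtrt2 passed there, but not without T2KO library 2 or 4 or WT library 1 or 2 (0.0506 to 0.0788), and Dock6 passed, but not without T2KO library 3 or 4 or WT library 2, 3 or 4 (0.0514 to 0.0886). Neither passed in the summed fit (0.099 and 0.138).

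Genes that respond to the medium were followed with sets chosen in other libraries. In LPS-treated WT cells, which share no library with this comparison, the 200 genes that low M-CSF raised most and the 200 that it lowered most were taken. Of the raised set, 31 were higher and 12 were lower in T2KO cells (21.5%, median log2 difference 0.17). Of the lowered set, 4 were higher and 48 were lower (26.0%, median -0.33). Over all genes the called share was 16.7%. In normal medium, where 1.86% of all genes were called, 12 of the raised set were higher and 8 were lower (10.0%, median -0.07), and the lowered set held 0 calls (median -0.02).

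With LPS in low medium, 2147 genes (19.1%) differed between genotypes, 922 higher (8.2%) and 1225 lower (10.9%) in T2KO cells. The difference without LPS departed from that with LPS for 1800 genes (16%). Of these, 955 had a more positive difference without LPS (8.49% of genes tested), 845 a more negative one (7.52%), and the share of positive ones was 53.1%. That split moved with the scaling, to 39.2% with DESeq2's size factors in edgeR, 41.5% in DESeq2 and 38.5% in a fit to the compared libraries, which called 959 genes. In the summed fit 91 genes passed, 38 more positive and 53 more negative. The median interaction over all genes was 0.13 under TMM and 0.02 with DESeq2's size factors. Trem2 stood at 6.01 CPM in T2KO and 332 CPM in WT cells with LPS. The 8 most negative of these interactions were in Kcnj10, Zfp937, Rnf152, Rnf225, Dtl, Prr11, Rgs9 and Brip1, and the 8 most positive in Treml1, Cables1, Nek8, Cdpf1, Cd38, Zfand1, Mir16-1 and Slc25a26. Several rest on a group near the floor. With LPS, 3 counts stood at 0.768 to 1.46 CPM in T2KO and 0.994 to 1.28 CPM in WT libraries. There, WT means were 0 CPM for Kcnj10 and Zfp937, and T2KO means 0 CPM for Treml1, Cables1 and Nek8. Without LPS, T2KO means of Rnf152, Rnf225 and Rgs9 were 0.0182, 0.0136 and 0.0688 CPM. Kcnj10, Zfp937, Nek8, Cdpf1, Zfand1 and Slc25a26 did not pass without LPS (edgeR adjusted p = 0.288 to 0.939). Brip1, a helicase of DNA repair, stood at 8.44 ± 2.44 CPM in T2KO and 39.7 ± 9.47 CPM in WT cells without LPS, and at 30.0 CPM in T2KO and 9.66 CPM in WT cells with LPS (interaction -3.86, adjusted p = 8.02e-09).

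A targeted allele is bred with the sequence around it, so genes near Trem2 were counted. Of 124 tested genes within 10 Mb of Trem2 on chromosome 17, 14 were higher and 9 were lower (18.55%, beside 16.7% of all genes), and in normal medium 6.45% passed, beside 1.86%. The higher genes were Pla2g7, Enpp4, Tjap1, Cnpy3, Bysl, A530064D06Rik, B430306N03Rik, Treml1, Rftn1, Sh3gl1, Hdgfl2, Safb2, Mllt1 and Dennd1c. The lower genes were Trem2, Cenpq, Nfkbie, Hsp90ab1, Polh, Rpl7l1, Sgo1, Chaf1a and Uhrf1, of which Chaf1a and Uhrf1 are in the replication list. Pla2g7, the lipoprotein-associated phospholipase, stood at 170 ± 27.1 CPM in T2KO and 66.0 ± 6.81 CPM in WT cells, and Enpp4, a nucleotide-cleaving ectoenzyme, at 17.3 ± 4.63 CPM in T2KO and 4.16 ± 0.906 CPM in WT cells. A530064D06Rik stood at 7.93 ± 2.41 CPM in T2KO and 2.03 ± 0.283 CPM in WT cells. Hsp90ab1 did not pass without WT library 2 (adjusted p = 0.141), Bysl without WT library 3 (0.0714), Safb2 without T2KO library 2 or 4 (0.103 and 0.0715) and Dennd1c without T2KO library 1 or WT library 2 (0.0711 and 0.0913). Hdgfl2 did not pass without T2KO library 2 or WT library 2 or 3 (0.0518 to 0.0706), nor Mllt1 without T2KO library 1 or 4 or WT library 1, 2 or 3 (0.0594 to 0.124). In the summed fit 14 genes in this window passed. Tjap1 (adjusted p = 0.0767), Cnpy3 (0.105), Nfkbie (0.132), Polh (0.0601) and Rpl7l1 (0.235) did not pass there. Nor did Hsp90ab1 (0.138), Bysl (0.143), Safb2 (0.228), Dennd1c (0.135), Hdgfl2 (0.215) or Mllt1 (0.195). What sequence the T2KO line carries around the gene is not given in the sources used here.

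**Figure D5:**
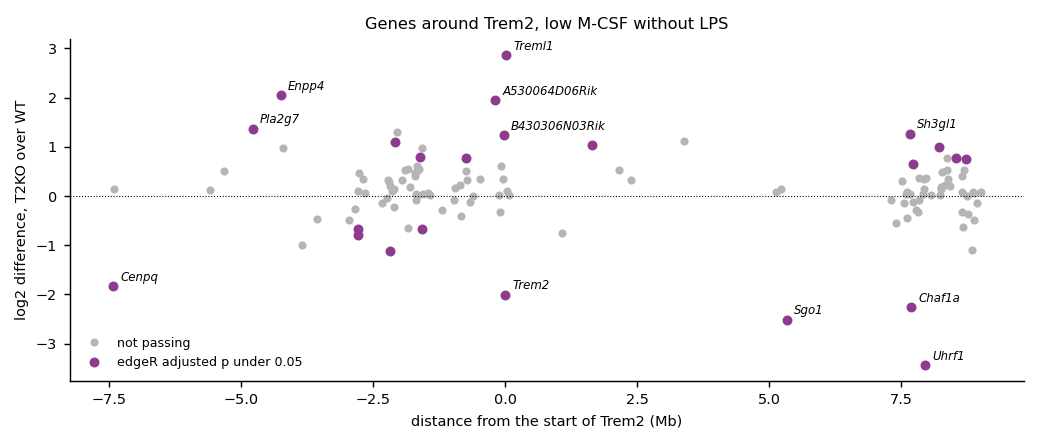
Log2 difference of T2KO over WT in low M-CSF (y axis) for each tested gene within 10 Mb of Trem2, by distance from its start in Mb (x axis). Purple points passed edgeR at adjusted p under 0.05. Trem2 stands at -2.0 and its neighbour Treml1 at 2.87, and most of the 124 genes lie near 0.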

How the data were processed

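RNA from 32 samples of bone marrow-derived macrophages was sequenced as barcoded, oligo-dT primed 3' libraries that were pooled by Actb qPCR and amplified, per the labels' protocols. The values used are the raw counts per gene that the authors deposited. STAR, HTSeq, DESeq2 and the build mm10 are named, without versions, in the submitters' processing notes, and molecular identifiers are not mentioned, so intervals and floors cover counting error only. Of 24885 identifiers, 23969 were given a symbol. Identifiers without a gene name held 0.235% to 1.27% of the counts in the 8 compared libraries. They were kept in the scaling and in the fits.

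Counts were fitted with edgeR 4.0.16 (R 4.3.3) in 1 quasi-likelihood model of all 8 groups, with TMM scaling and filterByExpr, which left 11244 genes, and p-values were adjusted by the Benjamini-Hochberg method over all of them. Genotype was compared in low M-CSF without LPS, and the difference was tested against normal M-CSF and against LPS. Alternatives used DESeq2 1.42.0 and its size factors, no or a stricter filter (1 CPM in 4 libraries), the compared libraries alone, a replicate block, libraries 1 and 3 and libraries 2 and 4 summed, and each library left out. Trem2 was tested on log2(CPM + 1) with an exact permutation test. The fits were first tested on simulated data. A level of 3 counts stands at 0.163 to 0.504 CPM (TMM-scaled) in the 8 libraries, which limits statements on low genes.

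The gene lists and the genes followed were chosen with earlier results of these data known. Genes were named by a rule. It takes Trem2 and its family list, the 15 largest rises and 15 largest falls (adjusted p under 0.05, at least 5 CPM in the higher group, no overlap), up to 8 passing members of each of 49 lists by size of change, the 8 largest interactions in each direction and all passing genes within 10 Mb of Trem2. Some genes that the rule names are not reported here. Brip1 was described from its interaction list, and a member that did not pass is named where its value is given. Promoter sequences are from RefSeq (GRCm38.p6).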

Additional observations from a re-analysis of the deposited data

Results flagged for a closer look

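The difference between T2KO and WT cells depended on the medium for 519 genes and on LPS for 1800 genes, as described above. Among the genes named above, 77 passed the test of the difference between media itself (edgeR quasi-likelihood interaction, adjusted p under 0.05). Values in brackets are that difference, the log2 difference of T2KO over WT in low M-CSF minus the same in normal M-CSF. The negative ones were Recql4 (-5.06), Pclaf (-3.54), Chek1 (-3.46), Esco2 (-3.41), Ccne2 (-3.36), Cspg4 (-3.32), Cenph (-3.32), Col4a1 (-3.29) and Uhrf1 (-3.23). Next came Serpinb6b (-3.23), Ttk (-2.95), Mcm10 (-2.84), Top2a (-2.69), Col4a5 (-2.68), Ncapg (-2.63), Prr11 (-2.63), Kif23 (-2.60) and Dtl (-2.49). Then came Fads2 (-2.42), Rrm2 (-2.40), Nusap1 (-2.40), Ptchd1 (-2.35), Sgo1 (-2.31), Mcm5 (-2.24), Ccnd1 (-2.15), Chaf1a (-2.13) and Nptx1 (-2.09). These were followed by Ccne1 (-2.06), Pcdh7 (-2.02), S100a4 (-1.98), Brip1 (-1.96), Plau (-1.96), Mthfd2 (-1.93), Tk1 (-1.75), Nfkbie (-1.64) and Lpl (-1.50). The list went on with Stard4 (-1.41), Scd2 (-1.41), Bcl2 (-1.39), Hsd17b7 (-1.32), Wipi1 (-1.28), Ccr2 (-1.28), Csf1 (-1.23) and Gpr183 (-1.22). Smaller still were Klf4 (-1.11), Spp1 (-0.96), Lat2 (-0.88) and Cx3cr1 (-0.76).

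The positive ones were Nod1 (2.86), Qtrt2 (2.47), Angptl4 (2.45), Plxna4 (2.27), Mir142 (2.02), Hcfc2 (2.0), Dock6 (1.98), Il18bp (1.96) and Ifit3 (1.93). Next came Il1b (1.92), Rps23 (1.92), Cebpa (1.74), Lcn2 (1.69), Gpx3 (1.56), S100a8 (1.42), Safb2 (1.41), Ngp (1.39) and Apoe (1.29). Then came P2ry12 (1.16), Pfkfb3 (1.15), B430306N03Rik (1.08), Cd86 (1.08), Trem2 (1.07), S100a9 (1.07), Ier3 (1.04), Rsad2 (1.02) and Ccl2 (1.0). These were followed by Atf5 (0.95) and Scarb2 (0.88). Rps23, Safb2, Hcfc2, Qtrt2 and Plxna4 split T2KO libraries 2 and 4 from libraries 1 and 3 in low medium. Nod1, Il18bp and Gpx3 split the same libraries, with libraries 1 and 3 the higher. Other genes listed here may split in this way too.

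Of 354 groups of 4 libraries examined, for 177 genes in T2KO and in WT cells of low M-CSF, 27 held 1 library whose gap to its nearest neighbour took up most of the range of the group (Dixon test at the 95% level). Chance gives this in about 1 in 20 groups. In T2KO library 1, Pira2 stood at 2.13 CPM. In T2KO library 2, Bcl2 stood at 7.7 CPM, Rnf152 stood at 0.0727 CPM and Sik1 stood at 0.727 CPM. In T2KO library 3, Rgs9 stood at 0.275 CPM and Tyrobp stood at 1370 CPM. In T2KO library 4, Rnf225 stood at 0.0543 CPM. In WT library 1, Apoc1 stood at 3.06 CPM and Cd38 stood at 0.128 CPM. In WT library 2, C1qa stood at 330.0 CPM, Camk2b stood at 0.768 CPM, Csf1r stood at 693 CPM, Esco2 stood at 65.7 CPM, Kcnj10 stood at 5.25 CPM, Psap stood at 1490 CPM, Retnlg stood at 1.15 CPM, S100a8 stood at 14.1 CPM, Slc40a1 stood at 69.5 CPM and Trem1 stood at 2.69 CPM. In WT library 3, Nek8 stood at 3.21 CPM and Tjap1 stood at 3.07 CPM. In WT library 4, Adam33 stood at 0.168 CPM, Ccr2 stood at 423 CPM, Csf1 stood at 8.9 CPM, Epb41l3 stood at 7.72 CPM, Pla2g7 stood at 76.2 CPM and Sftpc stood at 18 CPM. The values of Cd38, Rnf152 and Rnf225 are 1 count in an otherwise empty group.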

How the results depend on the processing

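No passing named gene and no Trem2 value changed direction under any alternative run. The balance of calls did turn for the LPS interaction (955 more positive and 845 more negative, against 671 and 1039 with DESeq2's size factors) and for some lists, among them glycolysis (3 higher and 2 lower, against 2 and 3 in the compared libraries alone) and complement (4 and 3, against 0 and 1 with libraries summed). The medians of some lists did change sign under some alternative, among them M-CSF receptors, macrophage identity, lipid- and damage-associated genes, chemokines, chemoattractant receptors and apoptotic cell uptake, so no direction is given for those lists. With libraries 1 and 3 and libraries 2 and 4 summed, the count of genes changed in low M-CSF was 621 in place of 1879, in normal M-CSF 39 in place of 209, for the medium interaction 97 in place of 519 and for the LPS interaction 91 in place of 1800. In the same setting the lists held 146 calls in place of 298, the genes near Trem2 14 in place of 23 and the genes that respond to M-CSF 60 in place of 95. DESeq2 called 359 genes in normal M-CSF, and the compared libraries alone gave 959 for the LPS interaction. Windows of 5 and 20 Mb around Trem2 held 14 and 62 calls, and sets of 100 and 400 responding genes held 42 and 222. With each library left out in turn the counts ran from 1260 to 1781 (low M-CSF), 144 to 188 (normal M-CSF), 398 to 509 (medium interaction), 1225 to 2006 (LPS interaction), 243 to 294 (lists), 20 to 26 (near Trem2) and 79 to 85 (responding genes). Fewer samples enter the summed fit. The cause of the shifts, in the summed fit or under the other alternatives, was not tested.

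The Trem2 difference on the log2(CPM + 1) scale was -1.99, with the replicate block -1.99, with libraries summed -1.96 and with each library left out -2.09 to -1.92. With the block, with libraries summed or with any 1 library left out, an exact test of this single gene could not reach p under 0.05. Same-numbered libraries correlated at 0.07, 0.39, 0.24 and -0.10, so the numbers were not taken to pair them, and the replicate block called 1795 genes. With WT library 2, T2KO libraries 2 and 4 correlated at 0.39 and 0.32, and T2KO libraries 1 and 3 at -0.33 each. With WT library 3, T2KO libraries 1 and 3 correlated at 0.23 and 0.24, and T2KO libraries 2 and 4 at -0.28 and -0.22. Whether libraries of the 2 genotypes share a batch was not tested. Of 177 named genes, 168 could be tested under every alternative, and 123 of those kept their side of the threshold under each. With libraries summed, 44 of the 177 lost their call.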
